A study of Mus musculus with 36 samples.

Results

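Mouse embryonic stem cells (mESCs) kept for 48 h in serum + LIF on soft StemBond hydrogels were compared with mESCs kept for the same time and in the same medium on tissue culture plastic. The comparison took the 3 libraries whose columns were headed as soft and the 3 headed as plastic, 6 of the 36 libraries and 2 of the 11 groups of the series, and covered all 17702 genes that passed the filter on low counts. StemBond hydrogels are polyacrylamide gels to which a matrix protein, by default fibronectin per the methods, is covalently tethered, and the soft and stiff versions differ in their elastic modulus. The question behind the comparison was how expression on a soft substrate differs from that on the rigid plastic of routine culture. All cells carried the strain label 129m wt, wild-type cells of a 129 background, and serum + LIF is medium with serum and leukaemia inhibitory factor, with no PD03, the MEK inhibitor used in other groups. The labels described the samples as cultures of embryonic stem cells and did not say whether the replicates were separate cultures. The p-values measure the spread between libraries within groups, estimated from all 36 libraries, and that spread may be technical. The plastic libraries were all of this medium and time. The closest other groups were 3 stiff hydrogel libraries at 48 h and 3 soft and 3 stiff libraries at 24 h, all in serum + LIF.

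mESCs in serum + LIF are a mixed population in which naive pluripotency factors such as Esrrb, Klf2 and Tfcp2l1 are held up by LIF acting through STAT3, and are opposed by ERK signalling. Cells on rigid substrates spread, assemble actin stress fibres and focal adhesions, and pull on the matrix through integrins. Serum response factor (SRF), which reads the pool of unpolymerised actin through its partner MRTF, and YAP with its TEAD partners are the transcription factors best known for turning this tension into gene expression.

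The total count per library was 15038711 to 18610615 on plastic and 15267817 to 16204575 on soft hydrogels. The sample descriptions carried library identifiers of 3 sets. All plastic libraries belonged to the first set, together with the 24 h libraries, and all soft 48 h libraries of this medium to the third, so substrate and identifier set cannot be told apart from these 6 libraries alone. Because other groups had libraries in more than 1 set, identifier set could be added as a term to a fit of all 36 libraries. The columns did not name single samples, so all 45 assignments that the labels allow were fitted, and the ranges of the counts over them are given beside the lists. Soft and stiff libraries at 24 h shared the first set, and their difference, from within 1 set and 1 time but with no plastic library, is given beside the lists where it adds to them, as is that of soft at 24 h from plastic at 48 h, which shares the set but not the time. Over all genes, 12.8% were higher and 15.1% lower in the latter. The share of counts from mitochondrially encoded genes was 2.27% to 2.92% on plastic and 0.626% to 1.44% on soft hydrogels, and soft library 2 had the lowest share of the 6.

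The cells carried the markers of embryonic stem cells in both groups. Pou5f1, the gene for OCT4, was at 557, 524 and 567 CPM (read counts scaled to library size with TMM factors) in the plastic libraries and 593, 611 and 565 in the soft libraries. Its groups overlapped, and its log2 fold change of soft over plastic was 0.10 ± 0.07 (SE, adjusted p = 0.39) by edgeR's quasi-likelihood test with Benjamini-Hochberg adjustment, the test behind all adjusted p-values here. Sox2, its partner in the core network, was at 268, 262 and 268 CPM on plastic and 304, 289 and 287 CPM on soft, with a log2 fold change of 0.14 ± 0.04 (SE, adjusted p = 0.027). Markers of other cell types were also present. The primitive endoderm list, described below, summed to 1810 to 1850 CPM on plastic and 1690 to 1760 CPM on soft. Lrp2, which was lower on soft, weighed far more in this sum than Gata4 and Gata6. Both of these were at a few CPM on plastic and higher on soft, as given below, so the sum is no measure of the lineage. The 11 tested markers of fibroblasts and feeder cells summed to 87.3 to 102 CPM on plastic and 41.9 to 45.3 CPM on soft, on plastic mostly from the collagen gene Col1a1, while Prrx1 and Postn were under 1 CPM in every library of both groups. The 10 tested trophoblast markers summed to 95.4 to 104 CPM on plastic and 75.9 to 95.0 CPM on soft, the 7 neural progenitor markers to 132 to 144 and 127 to 131 CPM, and the 9 mesoderm and endothelial markers to 62.0 to 63.5 and 65.9 to 78.8 CPM.

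Of the 17702 genes, 2083 differed between soft and plastic at an adjusted p under 0.05, which is 11.8% of the genes tested. They split into 937 genes that were higher on soft, 5.29% of those tested, and 1146 that were lower, 6.47%. The groups did not overlap for 2047 genes that were higher on soft, 11.6%, and for 2324 that were lower, 13.1%. Large changes were mostly decreases. At least a 2-fold change was reached by 231 genes lower on soft, 1.3%, and by 41 genes higher on soft, 0.232%. The median log2 fold change over all genes was -8.52e-05. With identifier set as a term, 126 to 445 genes passed the threshold, of which 35 to 154 were higher and 90 to 291 lower, and 56 genes, 0.316% of those tested, passed in every assignment. Some large changes passed in fewer assignments than others, and the number passed is given for only part of the named genes. A gene without it may have failed in some or all assignments. No member of the imprinted, ERK, cholesterol, matrix remodelling or mitochondrially encoded lists passed in every assignment. Only 2 groups had libraries from more than 1 set, so few libraries inform the term. Why calls were lost with it was not tested.

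**Figure D1:**
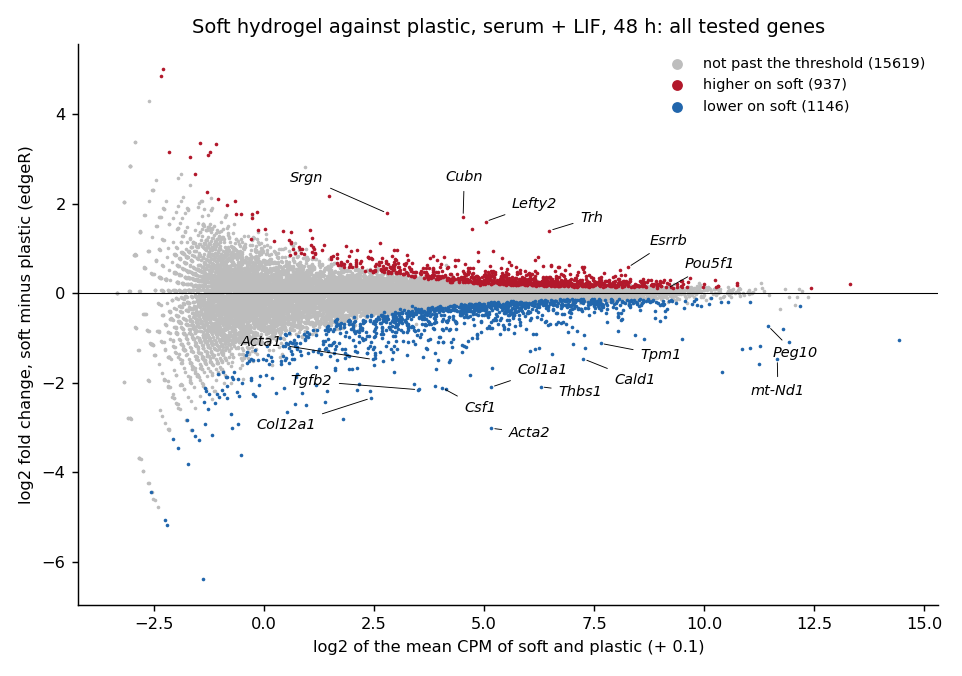
Log2 fold change of soft over plastic (vertical axis, edgeR) against the log2 of the mean CPM of both groups plus 0.1 (horizontal axis), with 1 point per tested gene, red for the 937 genes higher on soft and blue for the 1146 lower. The area below 0 holds most of the large changes, led among well-measured genes by Acta2, while Pou5f1 lies near 0.

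Genes of the contractile actin cytoskeleton fell on soft hydrogels. Of 29 tested genes of actins, myosins, tropomyosins, filamins, calponins and their partners, 25 were lower on soft and none was higher, against 6.47% lower over all genes, and the median log2 fold change of the list was -0.64. The largest fall was that of Acta2 (ENSMUSG00000035783, chr19:34241090-34255590 of GRCm38, minus strand), the gene for smooth muscle alpha-actin. Acta2 was at 56.7, 71.05 and 63.4 CPM in the 3 plastic libraries and 9.59, 8.25 and 5.62 CPM in the 3 soft libraries. Each soft library was far below each plastic library, and the log2 fold change was -3.02 ± 0.14 (SE, adjusted p = 6.1e-23), with a range of -3.61 to -2.40 over the identifier set assignments. Tagln, which encodes the actin-binding protein transgelin, was at 18.3, 17.7 and 19.5 CPM on plastic and 4.14, 4.89 and 3.47 CPM on soft, a log2 fold change of -2.15 ± 0.14 (SE, adjusted p = 1.2e-16). Cald1, the gene for caldesmon, which holds actin and myosin apart until calcium signals arrive, was at 222, 235 and 218 CPM and 81.1, 88.9 and 73.6 CPM, and fell by 1.47 on the log2 scale. All of these passed the threshold in every assignment. In bulk RNA a fall in the number of cells that express such a gene and a fall in RNA per cell cannot be told apart, here or below.

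Other members fell by less. Tpm1, a tropomyosin that lines actin filaments and the gene with the second smallest p of all, was at 269, 284 and 272 CPM on plastic and 129, 133 and 116 CPM on soft, with a log2 fold change of -1.12 ± 0.05 (SE, adjusted p = 1.1e-23). Acta1, the gene for skeletal muscle alpha-actin, was at 9.02, 7.81 and 7.39 CPM and 2.32, 3.49 and 2.88 CPM, a change of -1.48 ± 0.17 (SE, adjusted p = 1.3e-09), and it passed in 31 of the 45 assignments. The 4 members that did not pass were Tagln2, Cnn3, Srf and Tpm3, named here after their values were seen. Srf, the gene for SRF itself, was at 105, 108 and 107 CPM on plastic and 107, 102 and 102 CPM on soft. Its groups overlapped, with a log2 fold change of -0.04, adjusted p = 0.68. The fits with identifier set as a term gave 12 to 19 members lower and none higher. At 24 h, within 1 set, 25 of the 29 were lower on soft than on stiff hydrogels and none was higher, against 2.52% of all genes lower. Soft at 24 h against plastic gave 5 members higher and 15 lower, with a median of -0.16.

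Bases upstream of some of these genes are shown because both factors named above have well-known binding motifs: the CArG box, bound by SRF, and CATTCC, bound by TEAD factors. RefSeq promoters (build GRCm38.p6) were at hand for 26 of the 29 tested members, and the 250 bases before each start were searched on both strands. Capitals mark the motif matches, in lines written 5′ to 3′ on the strand of the gene.
Acta2, chr19:34255374-34255623, minus strand: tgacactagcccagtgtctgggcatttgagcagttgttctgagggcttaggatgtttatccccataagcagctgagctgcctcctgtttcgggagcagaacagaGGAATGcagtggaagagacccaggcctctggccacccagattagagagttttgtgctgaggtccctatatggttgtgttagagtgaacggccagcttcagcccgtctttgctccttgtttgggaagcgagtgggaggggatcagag
Acta1, chr8:123894776-123895025, minus strand: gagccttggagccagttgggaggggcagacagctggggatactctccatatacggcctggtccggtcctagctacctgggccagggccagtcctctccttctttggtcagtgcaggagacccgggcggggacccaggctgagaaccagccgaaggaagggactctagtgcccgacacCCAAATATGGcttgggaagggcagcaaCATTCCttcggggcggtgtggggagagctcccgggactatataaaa
Vcl, chr14:20929148-20929397, plus strand: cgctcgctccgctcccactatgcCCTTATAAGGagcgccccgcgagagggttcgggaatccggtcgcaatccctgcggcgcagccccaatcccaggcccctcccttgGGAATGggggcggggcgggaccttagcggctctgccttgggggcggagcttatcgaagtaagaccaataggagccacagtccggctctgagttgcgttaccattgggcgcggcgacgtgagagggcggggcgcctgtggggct
Myl9, chr2:156775214-156775463, plus strand: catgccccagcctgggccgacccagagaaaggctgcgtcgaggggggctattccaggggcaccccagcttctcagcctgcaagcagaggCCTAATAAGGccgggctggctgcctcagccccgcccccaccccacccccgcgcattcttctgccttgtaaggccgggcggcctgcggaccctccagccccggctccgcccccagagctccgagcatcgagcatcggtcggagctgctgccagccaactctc
Ccn1, chr3:145649986-145650235, minus strand: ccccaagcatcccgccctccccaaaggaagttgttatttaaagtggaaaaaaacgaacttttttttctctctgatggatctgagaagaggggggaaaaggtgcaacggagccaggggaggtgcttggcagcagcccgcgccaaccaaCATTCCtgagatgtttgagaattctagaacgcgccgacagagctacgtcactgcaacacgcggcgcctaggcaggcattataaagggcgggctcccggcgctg
A CArG box was found upstream of 7 of the 26 genes, which were Acta1, Actg1, Cnn2, Myl6, Myl9, Srf and Vcl, against 1.62% of the 27025 genes with a promoter in the table. Of these genes, Srf did not pass the threshold, and Cnn2, Myl6, Myl9 and Srf changed sign with the soft 24 h libraries in place. CATTCC, or GGAATG on the other strand, was found upstream of 11 of the 26, among them Acta2, Cald1, Flnc and Tpm1, against 14.4% of all genes with a promoter. In Acta1 the CArG box began 73 bases before the start and CATTCC 46 bases before it. In Acta2 no full CArG box was found, and 2 stretches were 1 base short of one. At least 1 such stretch was found upstream of 19.9% of all genes with a promoter. Matches of the 2 motifs overlapped in 4 of the 32851 promoters. A match is a description of these letters and no test of binding, and a part of either factor in these changes was not tested.

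**Figure D2:**
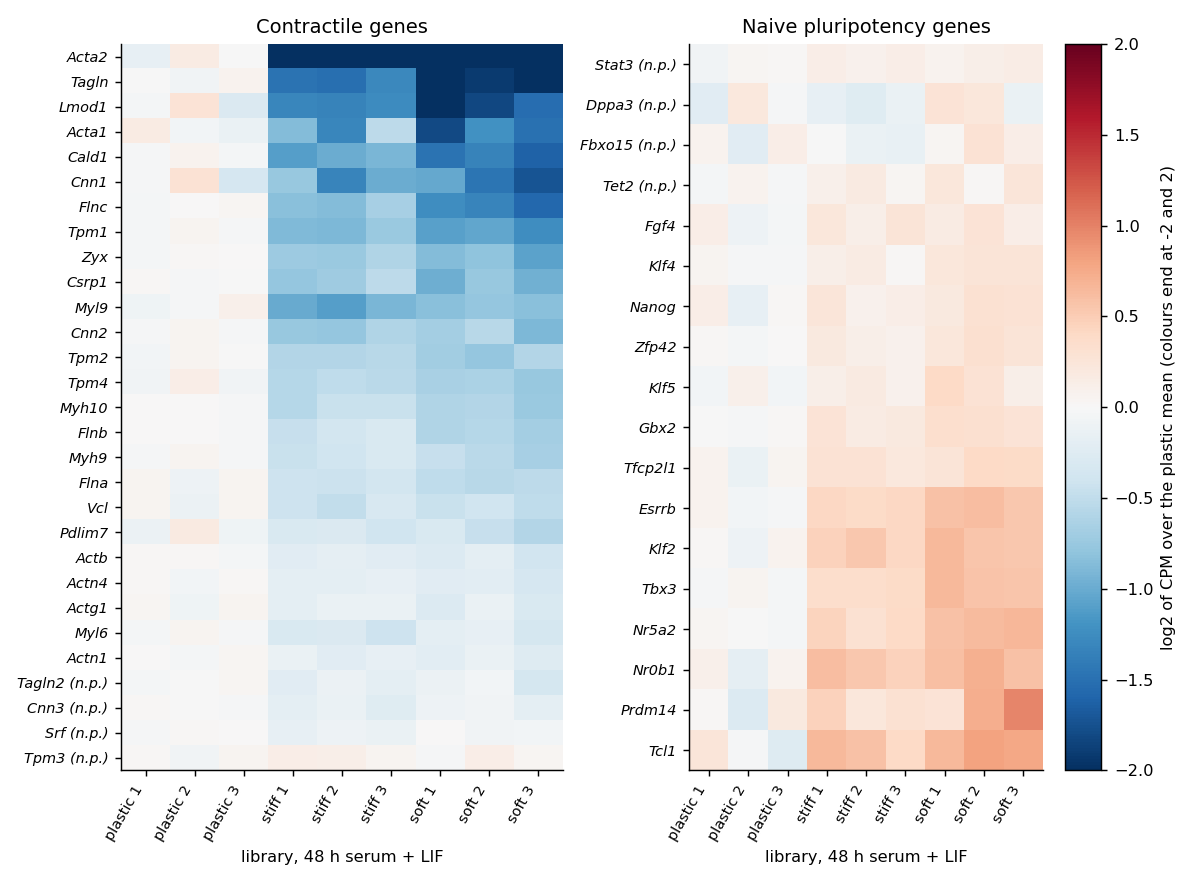
Log2 of each library's CPM over the mean of the 3 plastic libraries (colour), for the 29 tested contractile genes (left) and the 18 naive pluripotency genes (right), with 1 column per library of plastic, stiff and soft at 48 h and (n.p.) behind genes that were not past the threshold for soft against plastic. The contractile genes that passed are blue and the naive genes that passed are red in the soft libraries, and many are paler in the stiff libraries.

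Genes linked to YAP and TEAD fell with the contractile genes. Of 21 tested targets and pathway members, 14 were lower on soft and 1 was higher, against 6.47% and 5.29% of all genes. The median log2 fold change was -0.39. Thbs1 (ENSMUSG00000040152, chr2:118111876-118127133, plus strand) encodes thrombospondin-1, a secreted matrix glycoprotein, and had the smallest p of all genes tested. It was at 132, 121 and 127 CPM on plastic and 29.2, 34.2 and 25.6 CPM on soft, so that the highest soft library lay far below the lowest plastic library. The log2 fold change was -2.09 ± 0.08 (SE, adjusted p = 8.3e-26), with a range of -2.51 to -1.68 over the assignments. Ccn1, the gene for CYR61 and a long-used YAP target, was at 104, 97.5 and 98.1 CPM on plastic and 40.4, 52.96 and 32.4 CPM on soft, and changed by -1.25 ± 0.10 (SE, adjusted p = 1.4e-14). Its upstream sequence, printed above, was among 8 with CATTCC of the 16 list members with a promoter, against 14.4% of all such genes. Yap1, which did not pass the threshold, was also among the 8. The receptor tyrosine kinase gene Axl was at 9.86, 8.71 and 10.1 CPM and 3.39, 4.32 and 2.35 CPM, a change of -1.51, adjusted p = 3.7e-09. F3, which encodes tissue factor, the starter of blood clotting, was at 18.8, 16.2 and 20.02 CPM and 8.21, 8.19 and 6.87 CPM, a change of -1.24, adjusted p = 1.2e-10.

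The regulators were split. Lats2, a Hippo kinase, Tead1, Tead3 and the angiomotin relatives Amotl1 and Amotl2 were lower on soft, with Lats2 at -1.10, adjusted p = 1.5e-07 and Tead1 at -0.39, adjusted p = 1.1e-08. Yap1, Tead2, Tead4, Lats1, Amot and the target Nuak2 did not pass the threshold. Yap1 was at 143, 144 and 145 CPM on plastic and 141, 154 and 136 CPM on soft, with a log2 fold change of -0.0046, adjusted p = 0.97. Nf2, the gene for merlin, an upstream activator of the Hippo kinases, was the member that was higher on soft, at 224, 220.2 and 211 CPM on plastic and 257, 255 and 244 CPM on soft. These regulators were named after their values were seen. The identifier set term left 4 to 10 members lower. At 24 h, 12 of the 21 were lower on soft than on stiff and 1 was higher, against 2.52% and 1.03% of all genes. Soft at 24 h against plastic gave 2 higher and 11 lower, against 12.8% and 15.1% of all genes.

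Some genes of focal adhesions were lower. Of 34 tested genes for integrins and focal adhesion proteins, 15 were lower on soft and 3 were higher, with a median of -0.38. The shares over all genes were 6.47% lower and 5.29% higher. Itga3 encodes the alpha3 subunit of the laminin receptor and was at 166, 148 and 151 CPM on plastic and 85.97, 90.8 and 77.96 CPM on soft, a change of -0.87 ± 0.07 (SE, adjusted p = 4.6e-14). Each soft library was below each plastic library. The adaptors inside the adhesion fell too. Parva, the gene for alpha-parvin, which ties integrin-linked kinase to actin, was at 31.4, 35.3 and 33.6 CPM and 15.2, 15.7 and 12.8 CPM, a change of -1.19 ± 0.10 (SE, adjusted p = 2.7e-13). Zyx, the gene for zyxin, a protein recruited to adhesions and stress fibres under tension, was at 87.8, 91.5 and 90.3 CPM and 49.04, 51.2 and 42.6 CPM, a change of -0.92 ± 0.07 (SE, adjusted p = 2.3e-15). Tgfb1i1, the gene for the paxillin relative HIC-5, changed by -0.98, adjusted p = 4.5e-09. Fitting the identifier set left 2 to 10 members lower and 0 to 1 higher, 1 was higher without soft library 1 or plastic library 1, and soft at 24 h against plastic gave 8 higher and 9 lower, with a median of -0.028.

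Among collagen genes, those that passed were lower on soft hydrogels with 1 exception. Of 20 tested collagen genes, 10 were lower and 1 was higher, against 6.47% and 5.29% of all genes. The median was -0.69, and 2 to 7 were lower once identifier set was a term. Col1a1, which encodes the main chain of type I collagen, was at 60.3, 61.3 and 52.1 CPM on plastic and 15.1, 15.6 and 9.81 CPM on soft, a change of -2.10 ± 0.14 (SE, adjusted p = 1.8e-16). Col12a1, whose product decorates collagen fibrils, was at 9.02, 6.54 and 10.98 CPM and 1.13, 2.16 and 1.897 CPM, a change of -2.35 ± 0.22 (SE, adjusted p = 1.5e-11). Both passed the threshold in every assignment, and in neither did the groups overlap. Col11a1 and Col5a1, minor fibrillar collagens, changed by -0.85, adjusted p = 1.0e-05 and -0.68, adjusted p = 1.9e-06. Col1a1 is also a fibroblast marker. Of the other markers of that list Col1a2 and Pdgfrb were lower on soft, Thy1 was higher at 7.15 ± 0.404 CPM on plastic and 11.4 ± 0.689 CPM on soft (mean ± SD, n = 3), and 7 did not pass. The identifier set term left 1 to 2 markers lower and 0 to 1 higher, and the part of fibroblasts in the fall of the collagens was not tested.

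Basement membrane and matrix remodelling genes went both ways. Of 32 tested members, 12 were lower and 5 were higher on soft, against 6.47% and 5.29% of all genes, with a median of -0.19. The identifier set term left 0 to 6 lower and 0 to 3 higher, 3 were higher without soft library 2, and soft at 24 h against plastic gave 7 higher and 6 lower, with a median of 0.028. The metalloproteinase inhibitor genes Timp2 and Timp3 changed by -0.78, adjusted p = 0.0011 and -0.64, adjusted p = 8.0e-04, and Loxl2, the gene for a collagen-crosslinking oxidase, by -0.62, adjusted p = 0.0022. The 5 that were higher were Lama1, Fbln1, Nid1, Nid2 and Spp1, named after their values were seen. Lama1, whose chain is part of the first laminin of the embryo, was at 97.7, 87.02 and 95.8 CPM on plastic and 131, 136 and 136 CPM on soft, a change of 0.52 ± 0.06 (SE, adjusted p = 9.8e-10).

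The keratin genes Krt18, Krt8 and Krt19 were lower on soft. Of 29 tested genes of epithelial junctions and intermediate filaments, 13 were lower and 2 were higher, against 6.47% and 5.29% of all genes. The median was -0.18, and the identifier set term left 5 to 9 lower. Without soft library 1 or 2, 1 was higher. Krt18 and Krt8 encode the partners of the simple-epithelial keratin filament. Krt18 was at 90.8, 98.04 and 92.03 CPM on plastic and 40.3, 43.2 and 31.7 CPM on soft, a change of -1.28 ± 0.08 (SE, adjusted p = 1.7e-18). Krt8 was at 106, 109 and 103 CPM and 46.7, 50.1 and 39.6 CPM, a change of -1.22 ± 0.08 (SE, adjusted p = 1.8e-16). In both the groups were apart, and both passed in every assignment. Krt19 changed by -1.16, adjusted p = 4.2e-10, and Zeb2, a repressor of epithelial genes, by -0.83, adjusted p = 5.0e-06. At 24 h, 12 members were lower on soft than on stiff, against 2.52% of all genes, and none was higher.

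Other genes among the 10 largest decreases were in none of these lists. Csf1 (ENSMUSG00000014599, chr3:107741048-107760469, minus strand) encodes macrophage colony-stimulating factor and was at 26.7, 24.6 and 28.997 CPM on plastic and 7.15, 6.98 and 4.32 CPM on soft, a change of -2.12 ± 0.14 (SE, adjusted p = 4.4e-17). Prss23, a gene for a secreted serine protease, was at 8.36, 8.65 and 8.77 CPM and 2.32, 1.397 and 1.96 CPM, a change of -2.18 ± 0.21 (SE, adjusted p = 2.3e-11). Pmp22, which encodes a membrane protein best known from myelin, was at 30.6, 24.99 and 30.03 CPM and 7.15, 8.06 and 4.25 CPM, a change of -2.13 ± 0.15 (SE, adjusted p = 3.1e-16). No soft library reached the plastic range for any of them. Gm10925 fell by 2.08 on the log2 scale. It is annotated as an unprocessed pseudogene on chromosome 1, so its reads may belong to another copy, and was at 23.9, 26.7 and 20.2 CPM on plastic and 5.205, 3.75 and 7.91 CPM on soft.

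**Figure D3:**
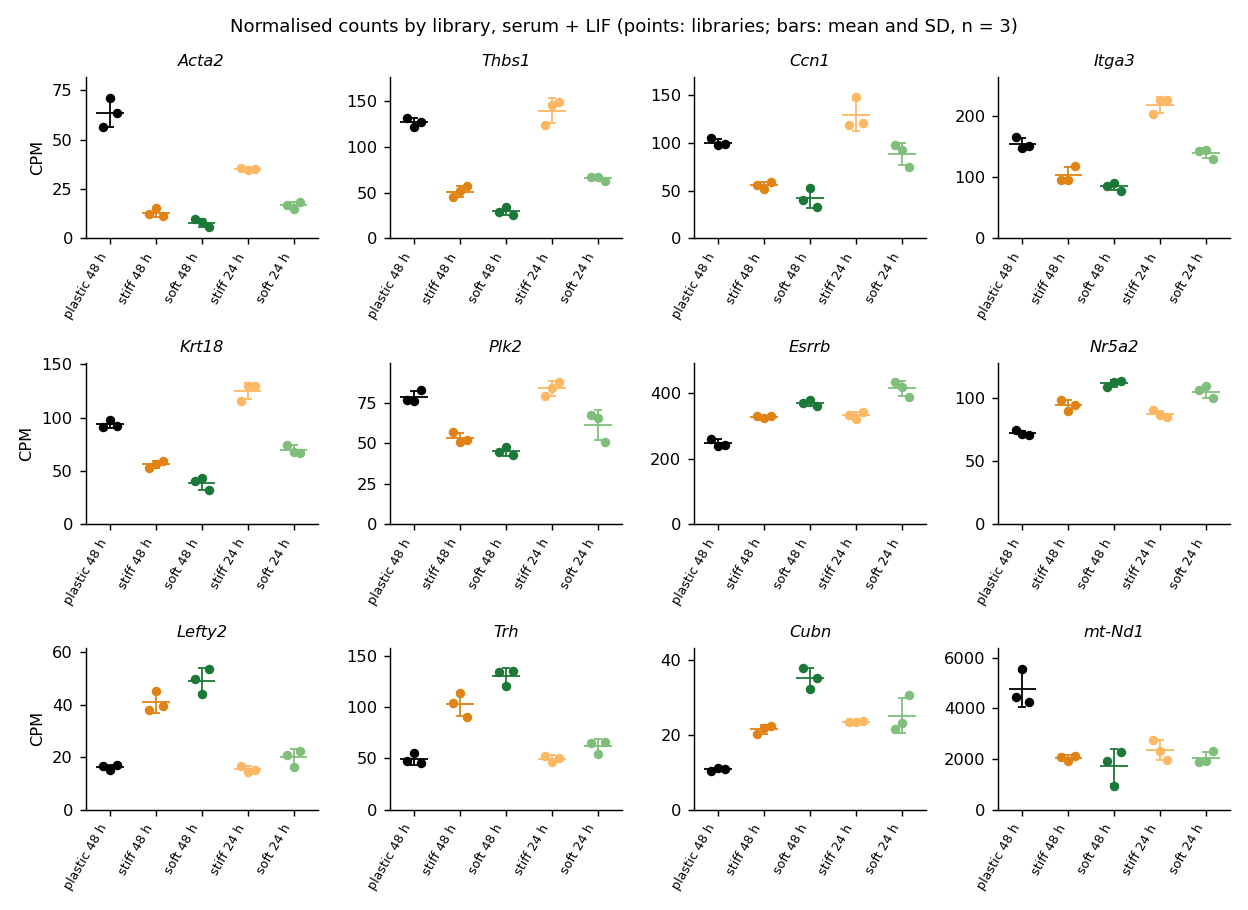
CPM (vertical axes, starting at 0) of 12 genes in the 3 libraries of plastic, stiff and soft at 48 h and of stiff and soft at 24 h (horizontal axes), all in serum + LIF, with points for libraries and bars for mean and SD. Acta2, Thbs1, Ccn1, Itga3, Krt18 and Plk2 are lowest on soft at 48 h, whereas Lefty2 and Trh are raised on both hydrogels at 48 h and near plastic at 24 h.

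Naive pluripotency genes were higher on soft hydrogels by modest amounts. Of 18 tested members, 14 were higher and none was lower, against 5.29% higher over all genes, and the median log2 fold change was 0.29. Nr5a2, the gene for a nuclear receptor that binds the Pou5f1 promoter, was at 74.7, 71.8 and 70.7 CPM on plastic and 109, 113 and 114 CPM on soft, a change of 0.63 ± 0.05 (SE, adjusted p = 2.1e-14). Nr0b1, the gene for DAX1, was at 103, 84.3 and 101 CPM and 145, 157 and 145 CPM, a change of 0.64 ± 0.06 (SE, adjusted p = 9.6e-12). Tcl1, a cofactor of the AKT kinase, was at 17.9, 14.9 and 12.6 CPM and 23.6, 26.5 and 25.9 CPM, a change of 0.73 ± 0.10 (SE, adjusted p = 1.7e-07). In each of these the lowest soft library was above the highest plastic library. Prdm14, a repressor of ERK-driven and DNA methylation genes, was at 6.02, 4.902 and 6.77 CPM and 7.15, 9.72 and 11.6 CPM, a change of 0.69, adjusted p = 2.9e-04.

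Zfp42, also called Rex1 and used as a reporter of naive pluripotency, was at 475, 455 and 467 CPM on plastic and 547, 583 and 555 CPM on soft, a change of 0.27 ± 0.06 (SE, adjusted p = 4.0e-04). Nanog was at 219, 177 and 202 CPM and 228, 247 and 243 CPM, a change of 0.26 ± 0.06 (SE, adjusted p = 8.8e-04). Both were higher in each soft library than in any plastic library. Esrrb, named after its values were seen, was at 261, 239.7 and 243 CPM on plastic and 371, 378 and 359 CPM on soft, a change of 0.58 ± 0.05 (SE, adjusted p = 5.4e-14), past the threshold in every assignment. The 4 members that did not pass were Stat3, Dppa3, Fbxo15 and Tet2. Under the identifier set term, 3 to 10 members were higher and none was lower. At 24 h, 13 of the 18 were higher on soft than on stiff and none was lower, against 1.03% of all genes higher.

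General pluripotency genes and those of the formative state that follows changed in both directions. Of 10 general members, 4 were higher and 2 were lower on soft, against 5.29% and 6.47% of all genes. The median was 0.13, and the identifier set term left 0 to 1 higher and none lower. With 1 library left out, 1 to 5 were higher and 1 to 2 lower, with 1 higher without soft library 1. Lin28a, a blocker of let-7 maturation, was at 424, 368 and 429 CPM on plastic and 317, 344 and 336 CPM on soft, a change of -0.29 ± 0.05 (SE, adjusted p = 4.3e-05). Dppa5a was at 489, 502 and 491 CPM and 593, 630.1 and 579.6 CPM, a change of 0.28 ± 0.05 (SE, adjusted p = 1.1e-05). Of 14 formative epiblast genes, 5 were lower and 2 were higher, with a median of -0.13. Fits with the identifier set left 0 to 1 lower and 0 to 1 higher, and 3 were lower without soft library 3 or without plastic library 3. Pou3f1, the gene for OCT6, was at 55.2, 62.5 and 56.3 CPM and 43.5, 43.4 and 39.96 CPM, a change of -0.46 ± 0.09 (SE, adjusted p = 1.7e-04). Zic2, also a member of that list, was higher, at 40.7, 40.8 and 36.7 CPM and 54.7, 52.6 and 52.6 CPM, a change of 0.43 ± 0.07 (SE, adjusted p = 1.3e-05). The formative markers Fgf5 and Otx2 did not pass. Of the 9 DNA methylation and demethylation enzymes, Tet3, Dnmt3l and Dnmt3b were lower on soft and none was higher, with changes of -0.55, adjusted p = 9.6e-08, -0.44, adjusted p = 2.6e-07 and -0.26, adjusted p = 0.0023, and 0 to 2 were lower once identifier set was a term. Of the 17 tested germline genes that methylation holds silent, none passed by edgeR or by the DESeq2 Wald test, and 3 had an unadjusted p under 0.05. None passed with the identifier set term either.

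**Figure D4:**
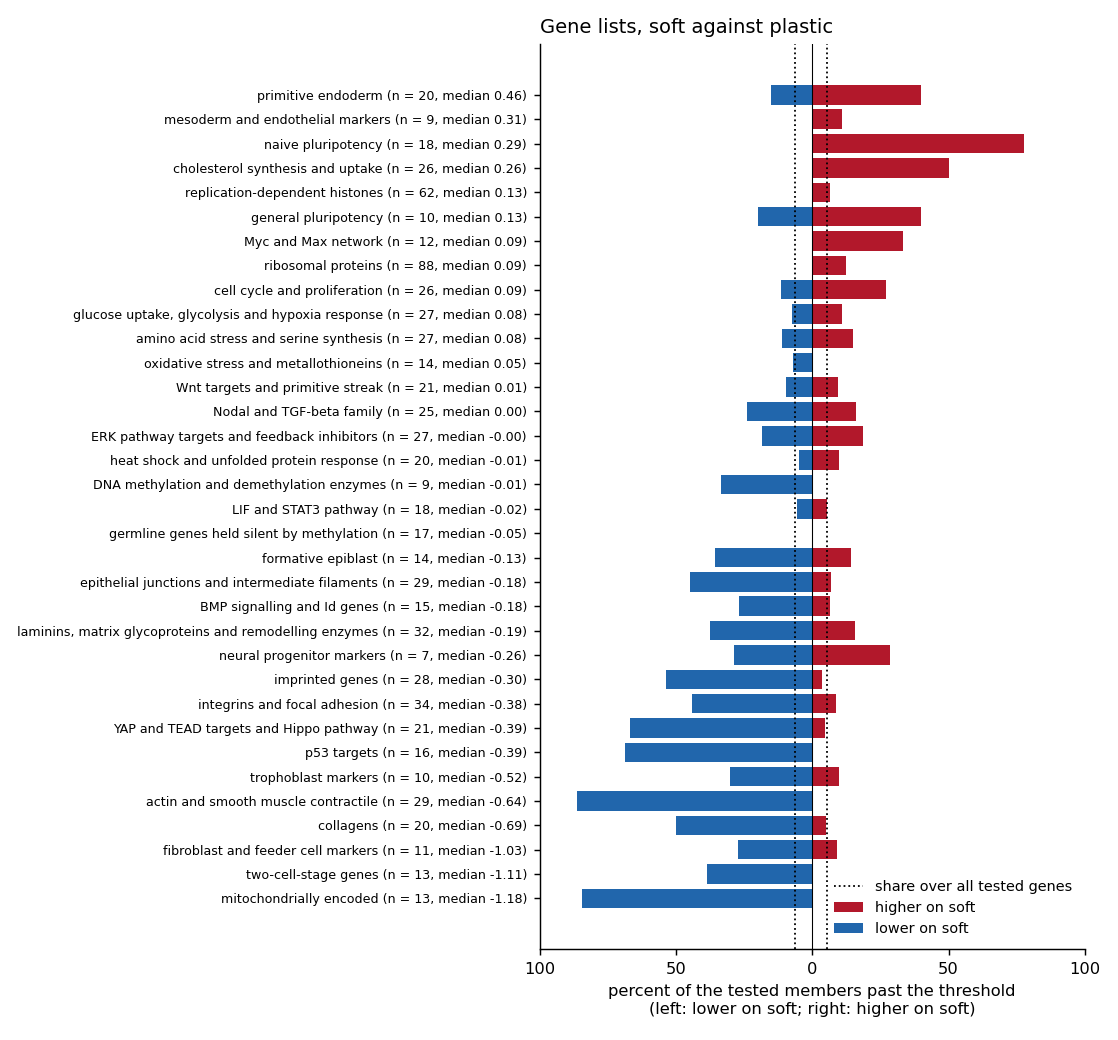
Percent of the tested members of each gene list that passed the threshold (horizontal axis), to the left for members lower on soft and to the right for members higher, with the number tested and the median log2 fold change behind each name and dotted lines at the shares over all tested genes, 6.47% lower and 5.29% higher. Lists are ordered by median. Contractile and mitochondrially encoded genes reach farthest left and naive pluripotency genes farthest right.

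Genes of the LIF and ERK pathways, which act on naive pluripotency from outside, showed few changes or changes in both directions. Of 18 tested genes of the LIF and STAT3 pathway, 1 was higher and 1 was lower. That is a share of 5.56% in each direction, near the 5.29% higher and 6.47% lower over all genes. Once identifier set was a term, 0 to 1 were higher and none was lower. None was lower without soft library 2 or 3 or without plastic library 2 or 3. The higher one was Socs2, a feedback inhibitor of cytokine receptors, with a change of 0.31, adjusted p = 9.8e-04, and the lower one was the kinase gene Pim2, with -0.24, adjusted p = 0.0099. Of 27 targets and feedback inhibitors of ERK, 5 were lower and 5 were higher, with a median of -0.00041. The identifier set term left 0 to 4 lower and 0 to 2 higher, and 3 were higher without soft library 2 or without plastic library 2. At 24 h, 7 were lower on soft than on stiff, against 2.52% of all genes, and none was higher, with a median of -0.20. Egr1, an immediate early transcription factor, was at 23.6, 26.7 and 25.8 CPM on plastic and 53.7, 40.3 and 52.1 CPM on soft, a change of 0.94 ± 0.10 (SE, adjusted p = 4.4e-10). The AP-1 genes Fosl2 and Jun fell, from 16.8, 17.5 and 18.99 CPM on plastic to 8.47, 9.72 and 7.46 CPM on soft for Fosl2, with a change of -1.05 ± 0.11 (SE, adjusted p = 5.9e-10). Jun changed by -0.92, adjusted p = 3.2e-08, and the phosphatase gene Dusp4 by -0.75, adjusted p = 7.3e-08. Among feedback inhibitors of the pathway, named after their values were seen, Spry4 and Spred2 were higher, at 0.25, adjusted p = 0.012 and 0.16, adjusted p = 0.0396, while Spry2, Dusp6 and Spred1 did not pass.

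Antagonists and ligands of the TGF-beta family held some of the largest changes in both directions. Of 25 tested genes, 4 were higher and 6 were lower on soft, against 5.29% and 6.47% of all genes, with a median of 0.0047. Once identifier set was a term, 2 to 3 were higher and 1 to 2 lower, and 3 were lower without soft library 2, plastic library 1 or plastic library 2. Lefty2 and Lefty1 (chr1:180893108-180899103 and chr1:180935022-180938400, both on the plus strand) encode secreted antagonists of Nodal and are themselves Nodal targets. Lefty2 was at 16.4, 15.3 and 17.1 CPM on plastic and 49.9, 44.1 and 53.6 CPM on soft, a change of 1.60 ± 0.10 (SE, adjusted p = 9.1e-18). Lefty1 was at 12.6, 14.5 and 15.8 CPM and 41.6, 33.7 and 40.8 CPM, a change of 1.44 ± 0.11 (SE, adjusted p = 8.3e-15). Every soft library was above every plastic library in both genes, and both passed in every assignment. Nodal itself, named after its values were seen, was at 43.9, 35.2 and 39.4 CPM on plastic and 37.8, 39.2 and 38.4 CPM on soft, with a change of -0.04, adjusted p = 0.81. Inhbb, the gene for the activin B subunit, rose by 0.66, adjusted p = 1.5e-06. Tgfb2, the gene for a TGF-beta ligand, went the other way, from 18.4, 19.002 and 17.95 CPM on plastic to 3.76, 4.699 and 3.92 CPM on soft, a change of -2.16 ± 0.14 (SE, adjusted p = 9.6e-17).

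The Lefty genes and Trh, the gene for thyrotropin-releasing hormone, had the 3 smallest p-values among genes that were higher. Trh was at 47.5, 55.3 and 44.9 CPM on plastic and 134, 119.8 and 135 CPM on soft, a change of 1.39 ± 0.09 (SE, adjusted p = 6.5e-17), and the 3 stiff libraries at 48 h, at 103, 114 and 90.2 CPM, were also above plastic. At 24 h the values were nearer to plastic. The soft 24 h libraries were at 20.9, 16.4 and 22.5 CPM for Lefty2, a difference from plastic at 48 h of 0.30, adjusted p = 0.036. They were at 10.5, 10.8 and 14.7 CPM for Lefty1, a difference of -0.22, adjusted p = 0.18, and at 65.1, 54.1 and 66.2 CPM for Trh, a difference of 0.33, adjusted p = 0.00703. The 24 h libraries share the identifier set of plastic, and in the comparison with plastic the time differed as well.

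Genes of BMP signalling that passed were mostly lower, and few genes of the Wnt list passed. Of 15 BMP pathway and Id genes, 4 were lower and 1 was higher, with a median of -0.18, and the identifier set term left 0 to 2 lower and 0 to 1 higher. Soft at 24 h against plastic turned the direction, with 7 higher and 2 lower and a median of 0.0435. Id2, a BMP target that blocks differentiation factors, was at 82.2, 83.2 and 90.5 CPM on plastic and 62.1, 67.6 and 61.9 CPM on soft, a change of -0.42 ± 0.06 (SE, adjusted p = 4.3e-07). The receptor gene Bmpr2 changed by -0.45, adjusted p = 1.3e-06 and the ligand gene Bmp4 by 0.32, adjusted p = 0.0064. Of 21 Wnt target and primitive streak genes, 2 were lower and 2 were higher, with a median of 0.011. That is a share of 9.52% in each direction, against 6.47% lower and 5.29% higher over all genes. Once identifier set was a term, 0 to 1 passed in each direction. Without soft library 1 or 2 or any plastic library, 1 was higher. Lef1, which encodes a partner of beta-catenin, was at 62.001, 71.8 and 68.8 CPM and 47.8, 48.2 and 53.5 CPM, a change of -0.44 ± 0.09 (SE, adjusted p = 1.8e-04), and with identifier set as a term its value ran from -1.33 to 0.20, on both sides of 0.

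Several markers of primitive endoderm, the extra-embryonic lineage that arises beside naive epiblast, were higher on soft. Of 20 tested members, 8 were higher and 3 were lower, against 5.29% and 6.47% of all genes, with a median of 0.46. Cubn, the gene for an endocytic receptor of this lineage, was at 10.4, 11.2 and 10.8 CPM on plastic and 37.8, 32.3 and 35.2 CPM on soft, a change of 1.70 ± 0.15 (SE, adjusted p = 2.7e-12). Srgn, the gene for a proteoglycan of secretory granules, was at 2.395, 3.27 and 3.66 CPM and 9.66, 11.2 and 11.1 CPM, a change of 1.79 ± 0.19 (SE, adjusted p = 2.4e-10). In both genes each soft library was above each plastic library. Gata6, which specifies the lineage, was at 4.12, 4.72 and 2.76 CPM on plastic and 7.78, 10.9 and 6.74 CPM on soft, a change of 1.12 ± 0.19 (SE, adjusted p = 2.0e-05), and it passed in 11 of the 45 assignments. Gata4 was at 3.23, 3.39 and 4.07 CPM and 7.27, 7.11 and 6.15 CPM, a change of 0.95 ± 0.20 (SE, adjusted p = 5.2e-04), and it passed in 1 of them. Lrp2, the partner receptor of Cubn and named after its values were seen, went the other way, from 342, 337 and 332 CPM to 181, 186 and 198 CPM, a change of -0.84 ± 0.06 (SE, adjusted p = 1.9e-16). Sox17 and Foxa2 did not pass. With identifier set as a term, 3 to 6 members were higher and 1 to 3 lower. Stiff against plastic at 48 h gave 9 higher and 5 lower, with a median of 0.39, so the rise was not particular to the soft gel. Between the gels at 48 h, 3 were higher on soft and none was lower. Soft at 24 h against plastic gave 7 higher and 6 lower. At 24 h, 6 were lower on soft than on stiff, against 2.52% of all genes, and none was higher.

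Other genes among the 10 largest increases have roles in other cells. Myo1f, the gene for an unconventional myosin of leukocytes, was at 6.02, 5.26 and 4.28 CPM on plastic and 9.66, 10.5 and 10.6 CPM on soft, a change of 0.97, adjusted p = 2.0e-06. Igsf21, the gene for a synaptic adhesion protein, was at 4.46, 6.54 and 5.45 CPM and 12.2, 10.6 and 9.29 CPM, a change of 0.97, adjusted p = 1.2e-05. Markers of other lineages gave no common direction. The shares over all genes were 6.47% lower and 5.29% higher. Of 10 trophoblast markers 3 were lower and 1 was higher, or 1 to 3 and none with the identifier set term, led by Gata3 at 23.7, 24.7 and 19.95 CPM on plastic and 11.5, 12.95 and 7.65 CPM on soft, a change of -1.09 ± 0.10 (SE, adjusted p = 6.9e-12). Of 7 tested neural progenitor markers 2 were lower and 2 were higher, with Nes, an intermediate filament gene, at -0.77, adjusted p = 5.4e-13 and Pax6 at 0.36, adjusted p = 0.00503, and the identifier set term left 1 lower and 0 to 1 higher. Of 9 mesoderm and endothelial markers Pecam1 was higher, at 0.31, adjusted p = 1.2e-04, and no other passed, and 0 to 1 passed with the identifier set term.

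Most targets of p53 fell and none rose. Of 16 tested targets, 11 were lower on soft, against 6.47% of all genes, with a median of -0.39. Plk2, the gene for a stress-induced kinase, was at 76.9, 76.01 and 82.99 CPM on plastic and 44.5, 47.9 and 42.4 CPM on soft, a change of -0.81 ± 0.07 (SE, adjusted p = 1.5e-12). Ccng1, the gene for cyclin G1, was at 350.1, 325 and 338 CPM and 204, 240.03 and 239.8 CPM, a change of -0.57 ± 0.05 (SE, adjusted p = 2.7e-12). Perp, the gene for a desmosome and apoptosis protein, changed by -0.77, adjusted p = 1.2e-09, and Phlda3, a brake on AKT, by -0.49, adjusted p = 3.3e-06. The groups did not overlap for any of the 4. The identifier set term left 2 to 8 targets lower. Stiff against plastic at 48 h also lowered 8 of the 16, with a median of -0.24. Soft at 24 h against plastic gave 1 higher and 7 lower, with a median of -0.13, and Perp and Phlda3 at 0.026 and 0.017. At 24 h, 3 targets were lower on soft than on stiff, against 2.52% of all genes, and none was higher. Among 26 cell cycle genes, 7 were higher and 3 were lower, against 5.29% and 6.47% of all genes. The median was 0.088, and 0 to 3 were higher and 0 to 1 lower with the identifier set term. With 1 library left out, 4 to 9 were higher and 1 to 2 lower, with 4 higher without soft library 2 and 1 lower without soft library 1, plastic library 1 or plastic library 3. Soft at 24 h against plastic turned the direction of the cell cycle list, with 3 higher and 10 lower and a median of -0.15. Ccnd2, the gene for cyclin D2, was at 65.1, 64.9 and 63.2 CPM and 95.7, 98.04 and 102 CPM, a change of 0.61 ± 0.07 (SE, adjusted p = 1.4e-09), while Ccne1, the gene for cyclin E1, changed by 0.30, adjusted p = 3.2e-05 and Cdk6 by -0.30, adjusted p = 0.0017. Of 12 genes of the Myc and Max network, 4 were higher, or 2 without soft library 1 and 0 to 2 with the identifier set term, and none was lower, with Myc itself at 239, 259 and 236 CPM on plastic and 308, 288 and 263 CPM on soft, a change of 0.23, adjusted p = 0.0061.

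Imprinted genes, expressed from 1 parental copy and often fetal growth regulators, were mostly lower on soft. Of 28 tested, 15 were lower and 1 was higher, against 6.47% and 5.29% of all genes, with a median of -0.30. Peg10, a gene derived from a retrotransposon and required for the placenta, was at 3412, 3590 and 3484 CPM on plastic and 2188, 2233 and 1884 CPM on soft, a change of -0.73 ± 0.06 (SE, adjusted p = 9.0e-13). Igf2, the gene for insulin-like growth factor 2, was at 188, 217 and 202 CPM and 116, 115 and 85.7 CPM, a change of -0.94 ± 0.10 (SE, adjusted p = 9.7e-11). Peg3 changed by -0.60, adjusted p = 4.9e-12, and Sgce by -0.96, adjusted p = 5.7e-07. Genes expressed from the paternal and from the maternal copy both fell: H19 and Meg3, noncoding RNAs of the maternal copy named after their values were seen, changed by -0.60, adjusted p = 6.8e-06 and -0.53, adjusted p = 0.022. Without plastic library 2, 9 members were lower, and fits with the identifier set left 0 to 6 lower.

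Some cholesterol synthesis genes were higher by small amounts. Of 26 tested, 13 were higher and none was lower, with a median of 0.26. Fdft1, the gene for squalene synthase, was at 42.3, 41.7 and 43.4 CPM on plastic and 65.5, 64.8 and 60.7 CPM on soft, a change of 0.58 ± 0.06 (SE, adjusted p = 4.6e-10). Insig1, a sterol-sensing brake on the pathway, was at 32.2, 27.8 and 31.1 CPM and 44.5, 45.3 and 38.3 CPM, a change of 0.49 ± 0.10 (SE, adjusted p = 1.9e-04). Fdps and Msmo1 changed by 0.43, adjusted p = 1.8e-04 and 0.37, adjusted p = 4.6e-04. Between 0 and 3 members were higher once identifier set was a term, and at 24 h 1 was higher on soft than on stiff. Soft at 24 h against plastic turned the direction, with 3 higher and 9 lower and a median of -0.035. Other metabolic and stress lists were split or near the shares over all genes, 5.29% higher and 6.47% lower. In each the identifier set term left at most 1 higher and 2 lower, and none for oxidative stress. Of 27 genes for glucose uptake, glycolysis and the hypoxia response, 3 were higher and 2 were lower, and Pfkfb3, a driver of glycolytic flux, was at 35.2, 37.6 and 39.8 CPM on plastic and 18.4, 18.8 and 21.9 CPM on soft, a change of -0.93 ± 0.09 (SE, adjusted p = 4.2e-11). Of 27 amino acid stress and serine synthesis genes, 4 were higher and 3 lower, and of 20 heat shock and unfolded protein response genes 2 were higher and 1 lower. Of 14 oxidative stress genes Hmox1 was lower, at -0.26, adjusted p = 0.0038. Soft at 24 h against plastic gave 3 heat shock genes higher and 9 lower, and 4 glycolysis genes higher and 8 lower. It gave 7 amino acid stress genes higher and 4 lower, and 4 oxidative stress genes higher and 1 lower. Over all genes, 12.8% were higher and 15.1% lower in that comparison.

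Most ribosomal protein and histone genes did not pass. Of 88 ribosomal protein genes, 11 were higher, 12.5% against 5.29% over all genes, and none was lower. The median was 0.090, and 0 to 2 were higher with the identifier set term. Rpl29 had the largest change of those that passed, 0.34, adjusted p = 4.2e-04. Of 62 replication-dependent histone genes, 4 were higher, a share of 6.45% against 5.29% over all genes, and none was lower, with a median of 0.13, and the identifier set term left 0 to 4 higher and 0 to 1 lower. Hist1h1b was at 0.33, adjusted p = 5.4e-04. Single libraries moved these counts, from 4 without soft library 2 to 25 without soft library 3 for ribosomal proteins, and from 1 without soft library 2 or plastic library 1 to 14 without soft library 3 for histones. Soft at 24 h against plastic gave 2 histone genes higher and 20 lower, with a median of -0.187. It gave 25 ribosomal protein genes higher and 13 lower. Both families hold near-identical copies whose reads the counting could split, so single members are uncertain.

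Mitochondrially encoded transcripts were lower on soft, with a wide spread between the soft libraries. Of 13 tested, 11 were lower, against 6.47% of all genes, and none was higher, with a median of -1.18. mt-Nd1, which encodes a subunit of complex I, was at 4453, 5560 and 4262 CPM on plastic and 1925, 945 and 2270 CPM on soft, a change of -1.47 ± 0.19 (SE, adjusted p = 3.7e-08). mt-Nd2, for another such subunit, was at 2453, 3121 and 2329 CPM and 1222, 611 and 1474 CPM, a change of -1.26 ± 0.19 (SE, adjusted p = 2.0e-06). Soft library 2 was the lowest in both genes, and without it 11 members were lower still. The stiff libraries at 48 h were at 2077, 1903 and 2130 CPM for mt-Nd1, and the soft 24 h libraries, which share the plastic identifier set, at 1890, 1924 and 2320 CPM, every one below every plastic library. Once identifier set was a term, 0 to 7 members were lower. mt-Atp6 and mt-Co3 changed by -1.82, adjusted p = 1.5e-11 and -1.24, adjusted p = 5.9e-10, and both have near-identical nuclear copies, so that their counts are uncertain. The cause of the lower mitochondrial share was not tested.

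Genes of the 2-cell-like state, a rare state of mESC cultures marked by the Zscan4 cluster, were at a few CPM. Of 13 tested members, 5 were lower, against 6.47% of all genes, and none was higher. The median was -1.11, and the summed level was 25.5 to 31.8 CPM on plastic and 10.5 to 19.4 CPM on soft. Zscan4c, named after its values were seen, was at 4.401, 4.54 and 3.73 CPM on plastic and 2.07, 1.59 and 1.897 CPM on soft, a change of -1.19 ± 0.31 (SE, adjusted p = 0.0065). These genes are near-identical copies and single members are uncertain. Only 2 passed without soft library 1 or 2 or without plastic library 1 or 3, and with identifier set as a term 0 to 1 passed.

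The stiff hydrogel served to place the changes between soft gel and plastic. Its libraries at 48 h came from the first and second identifier sets, and those of soft all from the third. Substrate and set therefore cannot be told apart between these soft and stiff libraries alone either. Soft and stiff at 48 h differed in 138 of 17702 genes, 0.78%, of which 79 were higher on soft, 0.446%, and 59 lower, 0.333%. Stiff against plastic gave 1.95% of all genes higher and 3.59% lower. It lowered 25 of the 29 contractile genes, with none higher and a median of -0.48, lowered 11 YAP and 12 mitochondrially encoded genes, and raised 9 naive genes. Of the contractile list, 6 members were lower on soft than on stiff and none was higher, and of the naive list 2 were higher and none was lower. Acta2 was at 12.3, 15.7 and 11.4 CPM in the stiff libraries, between plastic and soft but closer to soft, with a difference of soft from stiff of -0.73, adjusted p = 0.016. Thbs1 was at 45.01, 51.7 and 56.7 CPM on stiff, a difference of soft from stiff of -0.79, adjusted p = 2.5e-08. Nr5a2 was at 98.5, 89.7 and 95.1 CPM on stiff, a difference of 0.25, adjusted p = 0.0041, and Cubn at 20.1, 21.9 and 22.5 CPM, a difference of 0.70, adjusted p = 0.0062. In each of these the mean on stiff lay between those on plastic and soft. Lefty1 and Egr1 did not pass between the gels. On stiff they were at 35.3, 39.6 and 31.98 CPM and 47.7, 54.1 and 46.4 CPM, differences from soft of 0.12, adjusted p = 0.701 and -0.02, adjusted p = 0.97. The number of genes that separated soft from stiff moved with single libraries. It was 87 without soft library 1, 64 without soft library 2, 235 without soft library 3, 81 without stiff library 1 and 27 without stiff library 3. It was 0 to 41 by edgeR with identifier set as a term, and 1021 genes had an unadjusted p under 0.05 in the assignment that gave 0.

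No plastic library at 24 h was analysed here, so a comparison of soft at 24 h with plastic differs in time as well. Acta2 was at 16.99, 15.03 and 18.6 CPM on soft and 35.8, 34.9 and 35.3 CPM on stiff at 24 h, all 6 below plastic, with a difference of soft from stiff of -1.06, adjusted p = 2.7e-08. Thbs1 was at 67.3, 66.6 and 62.8 CPM on soft and 123, 146 and 149 CPM on stiff at 24 h, a difference of -1.09, adjusted p = 1.2e-15, and on stiff 2 of 3 libraries were above all plastic libraries. Esrrb was at 435, 419.5 and 389 CPM on soft and 334, 322 and 342 CPM on stiff at 24 h, a difference of 0.32, adjusted p = 2.2e-06.

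**Figure D5:**
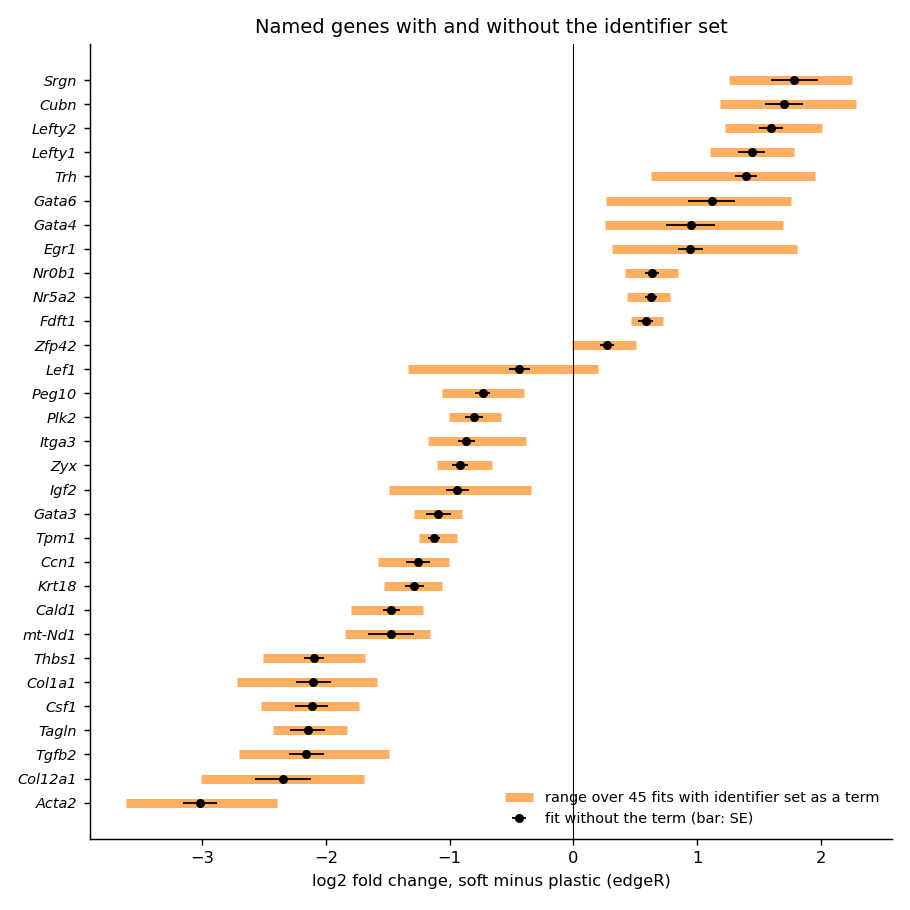
Log2 fold change of soft over plastic (horizontal axis) for 31 named genes (vertical axis), with black points and bars for the fit without identifier set and its SE, and orange bars for the range over the 45 fits with identifier set as a term. The ranges of the contractile, matrix and Lefty genes stay on 1 side of 0, and those of Lef1 and Zfp42 include it.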

How the data were processed

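Per the labels, total RNA was extracted with a column kit and DNase and sequenced. The authors aligned reads with STAR 2.5.2a to GRCm38 and made read counts per Ensembl gene with HTSeq, per the submitters' processing notes and methods. The deposited values are raw counts. Counting by strand and of reads with several matches is not given in the sources used here. Columns were matched to groups by heading, and library numbers are only names.

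Counts were tested with edgeR 4.0.16 in R 4.3.3 (filterByExpr, TMM scaling, quasi-likelihood test, all 36 libraries as 11 groups, Benjamini-Hochberg threshold 0.05), and 17702 of 49671 genes were tested. On simulated counts of 17445 genes, 88% of planted log2 changes of 0.5 and 99% of those of 1 were recovered. Changes were planted only in genes of at least 5 CPM. The spread of each simulated gene was the trend at its expression level, and no effect of identifier set was simulated. The shares therefore do not cover lower genes or such an effect. DESeq2 1.42.0 was an alternative, beside other scalings, filters, sets of libraries and identifier set as a term. No 2 replicates agreed within sampling noise. Intervals from depth cover counting error only.

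The members and the 34 gene lists were chosen with earlier results of these data known. Named genes were, in each direction, the 10 largest changes with a mean of at least 5 CPM and groups that did not overlap, the 3 smallest p, up to 4 members of each list past the threshold with the largest changes at 5 CPM or more, and Pou5f1, Sox2, Nanog and Zfp42. Other named genes were chosen after their values were seen. Some genes that meet these rules are not reported here.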

Additional observations from a re-analysis of the deposited data

How the results depend on the processing

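No paired analysis was possible because the column headings carry no replicate number. The number of genes that differed between soft and plastic, 2083, was 2091 with DESeq2 size factors, 1948 with no filter on low counts, 1903 with the 9 libraries of 48 h in serum + LIF, 1604 with the 6 libraries alone, 2079 with library sizes that left out mitochondrially encoded genes and 2090 with the DESeq2 Wald test. No filter turned the split to 1070 higher and 878 lower. Leaving out 1 library at a time gave 1523 to 2018 genes, of which 633 to 1117 were higher and 817 to 901 lower, with 225 to 246 at least 2-fold, and without soft library 3 the higher genes, 1117, outnumbered the lower, 901. With identifier set as a term the counts were 126 to 445, with 35 to 154 higher, 90 to 291 lower and 52 to 149 at least 2-fold. With the soft 24 h libraries in place of those at 48 h they were 4948, with 2267 higher, 2681 lower and 467 at least 2-fold. Time differs as well in that comparison. The 138 genes between soft and stiff became 266 with no filter, 88 with 9 libraries, 231 with DESeq2, 27 to 235 with 1 library left out and 0 to 41 with identifier set as a term. No setting moved the median of all genes by more than 0.0276. The causes of these shifts were not tested.

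Of 145 named genes, 137 to 141 kept their direction and side of the threshold with 1 library left out. With identifier set as a term, 51 of the 145 kept their call, and the others passed without the term but not in every assignment. With the soft 24 h libraries in place, 21 changed sign, with log2 fold changes of 0.28 for Cnn2, -0.25 for Hist1h1b, 0.18 for Hmox1, 0.24 for Id2, -0.27 for Insig1, -0.22 for Lefty1, 0.11 for Meg3, -0.021 for Msmo1, -0.063 for Myc, 0.32 for Myl6, 0.073 for Myl9, -0.066 for Nid2, 0.026 for Perp, 0.017 for Phlda3, -0.42 for Rpl29, -0.0024 for Sox2, -0.43 for Spred1, 0.24 for Srf, 0.17 for Tagln2, 0.0084 for Tgfb1i1 and 0.021 for Timp3. With identifier set as a term, the lowest values over the assignments were below 0 for 8 genes, at -0.15 for Bmp4, -0.11 for Pax6, -0.026 for Socs2, -0.0091 for Spp1, -0.00089 for Spred2, -0.17 for Spry4, -0.19 for Thy1 and -0.011 for Zfp42, and the highest were above 0 for 3, at 0.20 for Lef1, 0.044 for Pou3f1 and 0.49 for Zscan4c. Between lists, leaving out 1 library left 22 to 26 contractile, 11 to 14 YAP and 9 to 13 imprinted genes lower, and 13 to 14 naive and 11 to 14 cholesterol genes higher. Imprinted genes fell to 9 without plastic library 2. Genes of a few CPM, such as the 2-cell markers, rest on few counts and are the least precise.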
